A study of Mus musculus with 2 samples.

Results

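The Gpnmb, Mmp12 and Mmp13 macrophages were 1259 of the 3337 macrophages, and of the 24160 kept cells, in 2 orthotopic mouse pancreatic tumors profiled by droplet single-cell RNA-Seq. A kept cell had at least 500 genes, 1000 to 60000 unique molecular identifiers (UMIs, each a counted RNA molecule) and at most 15% mitochondrial UMIs. A macrophage held at least 10 UMIs of the complement genes C1qa, C1qb and C1qc together, making up at least 0.2% of its UMIs, and fewer than 10 of the keratin genes Krt8 and Krt18. A gated macrophage, as these cells are named here, also held at least 5 UMIs of Gpnmb, Mmp12 and Mmp13 together and fewer than 3 of Lyve1, Folr2 and Fcna. The rule thus read the measured values of these genes in the same cells, so their levels are given as descriptions.

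Cells of the mouse pancreatic cancer line KPC were grafted into the pancreas carrying either the vector hairpin shV or the Zeb1 hairpin shZEB1. Each label stands for 1 tumor, dissociated with collagenase and trypsin, and 1 library, so animal, tumor, library and hairpin cannot be told apart. According to the study's text, the tumors used for single-cell sequencing came from mice given gemcitabine, but the labels do not mention it. The labels give no strain, sex or age, and both groups come from 1 cell line. With 1 library a group no test was possible. Levels are UMIs of a gene in 1e6 UMIs (CPM), from the summed UMIs of a class, and intervals are at 95% and cover counting error only. Where values come in pairs, the library labelled KPC-shV stands first and the library labelled KPC-shZEB1 second.

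Tumor macrophages arise from blood monocytes and from cells that settled in the tissue before birth, and many switch on matrix proteases and genes of lipid handling. Gpnmb encodes a membrane glycoprotein of lysosomes and the cell surface that is induced in lipid-loaded and phagocytic macrophages. Mmp12, the macrophage elastase, and Mmp13, a collagenase, are secreted enzymes that cut elastin and fibrillar collagen. C1q marks mature macrophages, whereas Lyve1, Folr2 and Fcna mark macrophages resident in connective tissue.

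Zeb1, the target of the hairpin, was no lower under the KPC-shZEB1 label. In tumor reference cells, chosen by keratin UMIs, it was at 154 and 180 CPM (ratio 1.17, 1.13 to 1.22). Zeb1 was also higher under that label in gated macrophages (63.1 and 87.8 CPM, ratio 1.39, 1.26 to 1.54). In other macrophages it was at 45.4 and 82.1 CPM (1.81, 1.62 to 2.02). The paper measured the knockdown in KPC cells separately. It also stained tumor tissue for the Zeb1 protein, which is not set against these RNA levels here. The cause of these Zeb1 levels was not tested. The libraries shared 46 barcodes, of which 40 were kept in both, and 0 were macrophages in both. Kept cells held a median of 3764 and 4381 UMIs. Neutrophil reference cells, chosen by S100a8 and S100a9, were 41.4% and 13.7% of kept cells.

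The 250 bases before the start sites of the gate genes, and of Plet1, the gene outside the rule with the largest ratio of gated over other macrophages in both libraries, are shown because the results turn on these genes. The sequences are from RefSeq on GRCm38.p6, plus strand, 5′ to 3′. Capitals mark a match, on either strand, to an AP-1 site (TGANTCA), the E-boxes of the MITF and TFE factors (TCACGTG and TCATGTG), a RUNX site (TGTGGTT) or a STAT site (TTC and GAA with 4 bases between).
Gpnmb, chr6:49036268-49036517: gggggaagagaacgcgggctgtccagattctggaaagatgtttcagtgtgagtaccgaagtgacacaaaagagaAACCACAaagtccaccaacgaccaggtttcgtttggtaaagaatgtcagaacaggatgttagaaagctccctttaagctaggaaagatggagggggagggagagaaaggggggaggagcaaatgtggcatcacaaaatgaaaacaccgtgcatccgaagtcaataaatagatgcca
Mmp13, chr9:7272264-7272513: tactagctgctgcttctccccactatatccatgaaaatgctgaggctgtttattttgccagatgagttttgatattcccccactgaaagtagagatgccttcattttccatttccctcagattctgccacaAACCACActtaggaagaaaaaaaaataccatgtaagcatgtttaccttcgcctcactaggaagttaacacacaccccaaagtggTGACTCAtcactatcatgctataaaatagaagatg
Mmp12, chr9:7344147-7344396: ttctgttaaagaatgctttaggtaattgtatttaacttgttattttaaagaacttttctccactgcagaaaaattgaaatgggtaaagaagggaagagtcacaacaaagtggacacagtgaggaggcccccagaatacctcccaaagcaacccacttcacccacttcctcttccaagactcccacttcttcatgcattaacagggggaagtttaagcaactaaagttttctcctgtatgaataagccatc
Plet1, chr9:50494275-50494524: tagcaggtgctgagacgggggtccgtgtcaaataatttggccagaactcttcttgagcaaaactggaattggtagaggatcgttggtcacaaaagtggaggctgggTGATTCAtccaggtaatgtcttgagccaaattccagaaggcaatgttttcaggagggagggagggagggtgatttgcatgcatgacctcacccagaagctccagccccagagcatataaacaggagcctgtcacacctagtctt

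Mmp13 held an AP-1 match (TGACTCA) from base -35 to base -29, counted from the start site, and a RUNX match (AACCACA on this strand) from -119 to -113. Gpnmb held a RUNX match from -176 to -170, and Plet1 an AP-1 match (TGATTCA) from -144 to -138. None of the 5 motifs was found in the Mmp12 window, the first of 2 RefSeq start sites. Of 32851 promoter windows of the same length, 6.75% held the AP-1 motif, 4.40% the RUNX motif, 5.85% the STAT motif, and 3.13% and 3.25% the E-boxes. A match describes letters, not bound protein.

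Gated macrophages took a like share of macrophages in both tumors. They were 446 of 1194 macrophages under the KPC-shV label (37.4%, 34.6 to 40.2) and 813 of 2143 under the KPC-shZEB1 label (37.9%, 35.9 to 40.0). The ratio of the shares, KPC-shZEB1 over KPC-shV, was 1.02 (0.904 to 1.14). Macrophages meeting the Lyve1, Folr2 and Fcna gate alone were 253 and 357 cells (21.2% and 16.7%), those meeting neither gate were 471 and 932 (39.4% and 43.5%), and those meeting both were 24 and 41. For the Lyve1, Folr2 and Fcna cells the ratio of the shares was 0.786 (0.667 to 0.927).

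As a share of kept cells, gated macrophages were 3.81% (3.47 to 4.17) and 6.53% (6.10 to 6.98), a ratio of 1.72 (1.53 to 1.93). All macrophages together had a ratio of 1.69 (1.57 to 1.81). With neutrophil reference cells left out of the denominator, the ratio for gated macrophages was 1.17 (1.04 to 1.31). The larger share of kept cells thus stood beside the lower neutrophil share, and within macrophages the interval of the ratio held 1. Whether a share differed through more gated cells or fewer of the others cannot be told apart.

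**Figure D1:**
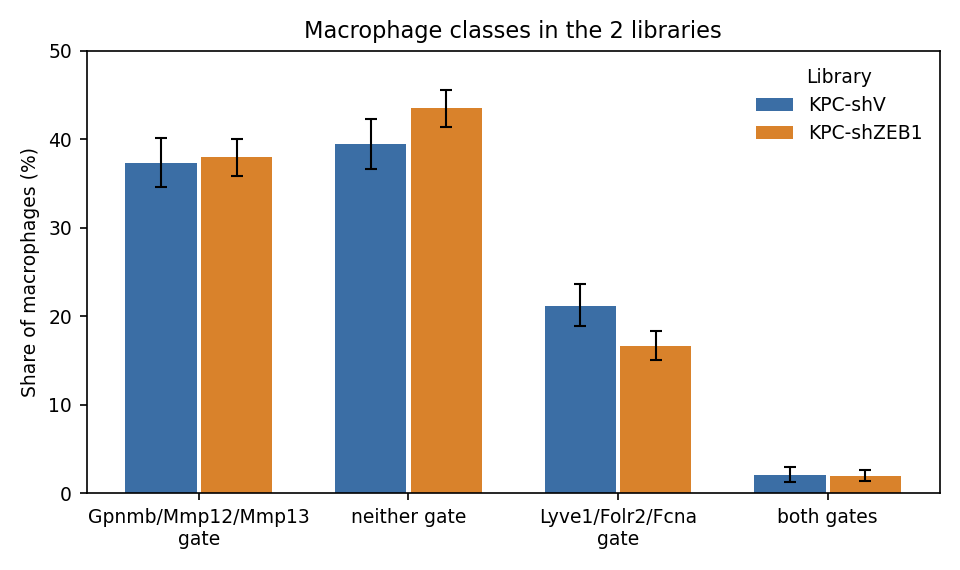
Share of macrophages (%) in each of 4 classes set by the 2 gates, with 95% Clopper-Pearson intervals, for both libraries. The gated macrophages stood at 37.4% and 37.9%, while the Lyve1, Folr2 and Fcna class stood at 21.2% and 16.7%.

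The gate counts UMIs, and cells of over 10000 UMIs met it more often than shallower ones. Gated macrophages held a median of 19296 and 19562 UMIs and 4467.5 and 4579 genes, against 11347.5 and 11808 UMIs in the other macrophages. Their share of macrophages was 15.03% and 14.3% among cells of 1000 to 5000 UMIs, 15.2% and 10.8% among cells of 5000 to 10000 UMIs, 35.5% and 36.6% among cells of 10000 to 20000 UMIs, and 67.3% and 67.2% among deeper cells. When every macrophage was thinned to 5000 UMIs, with shallower cells left out, the share was 27.7% and 24.6%, and the ratio between the libraries was 0.889. Doublet scores above 0.2 were found in 12 and 14 gated macrophages (2.69% and 1.72%).

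Mmp12 carried most of the gate's signal. Gpnmb (chr6:49036546-49070929, plus strand, GRCm38), Mmp12 (chr9:7344381-7369499, plus strand) and Mmp13 (chr9:7272514-7283331, plus strand) are protein-coding genes, and Mmp13 and Mmp12 lie 61049 bases apart in a cluster of matrix protease genes. Mmp12 gave 76.7% and 77.5% of the gate UMIs, Mmp13 gave 14.7% and 10.7%, and Gpnmb gave 8.64% and 11.8%. At least 1 Mmp12 UMI was found in 94.6% of gated cells in both libraries, a Gpnmb UMI in 40.8% and 47.7%, and an Mmp13 UMI in 60.1% and 50.9%. By class, Mmp12 was at 1708 and 1367 CPM in gated cells, 40.7 and 47.3 CPM in macrophages meeting neither gate, and 18.97 and 41.2 CPM in B and T cells.

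The gated cells ranged widely in gate UMIs, from 5 to 369 in a cell with a median of 26 under the KPC-shV label, and from 5 to 315 with a median of 21 under the KPC-shZEB1 label. The 10% of cells with the most held 38.1% and 35.9% of the gate UMIs. All 3 genes were found together in 24.4% and 22.4% of the cells, 2 of 3 in 46.6% and 48.5%, and 1 in 28.9% and 29.2%. Mmp12 without Gpnmb was the state of 58.1% and 51.7% of the cells, and Gpnmb without Mmp12 of 4.26% and 4.80%.

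Just inside the gate, at a sum of 5 UMIs, Plet1 was at 99.6 and 81.9 CPM in 19 and 52 cells. Just outside, at a sum of 4, it was at 40.5 and 54.8 CPM in 28 and 53 cells, and in cells with 50 or more gate UMIs at 437 and 567 CPM. Gated cells with 2 UMIs of Lyve1, Folr2 and Fcna numbered 24 and 48. Cells with 3 such UMIs, left out by the rule, numbered 4 and 16.

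Macrophage genes that the rule did not use were higher in the gated cells than in B and T cells. Macrophage identity genes are set against other macrophages further below as a list. Lyz2, the macrophage lysozyme, was at 7402 and 8400.4 CPM, against 282 and 663 CPM in reference B and T cells, which should lack it. Csf1r, the receptor for the macrophage growth factor CSF1, was at 316 and 346 CPM, against 15.9 and 34.2 CPM in B and T cells. Mertk, a receptor for dying cells, was at 497 and 440 CPM, against 10.4 and 23.3 CPM.

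Not all the markers given for these cells were higher in them. Apart from the gate genes they were Apoe, an apolipoprotein, Dnase1l3, a secreted nuclease, and Atp6v0d2, a subunit of the vacuolar proton pump found in osteoclasts and some macrophages. Under the KPC-shV label Atp6v0d2 was at 156 CPM (148 to 165) in gated and 26.1 CPM in other macrophages, and under the KPC-shZEB1 label at 138 CPM (132 to 144) and 46.4 CPM. Dnase1l3 was at 177 and 49.5 CPM in the first library (ratio 3.58, 3.22 to 3.99) and at 136 and 71.4 CPM in the second (1.90, 1.77 to 2.04).

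Apoe went the other way. It was at 9208 CPM in gated and 11829.9 CPM in other macrophages under the KPC-shV label (ratio 0.778, 0.771 to 0.786), and at 13880.5 and 16869 CPM under the KPC-shZEB1 label (0.823, 0.818 to 0.827). Apoe therefore made up a smaller share of UMIs in gated than in other macrophages in both libraries. Gated cells were deeper, so this is not an amount per cell. They are named here by their gate genes alone.

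**Figure D2:**
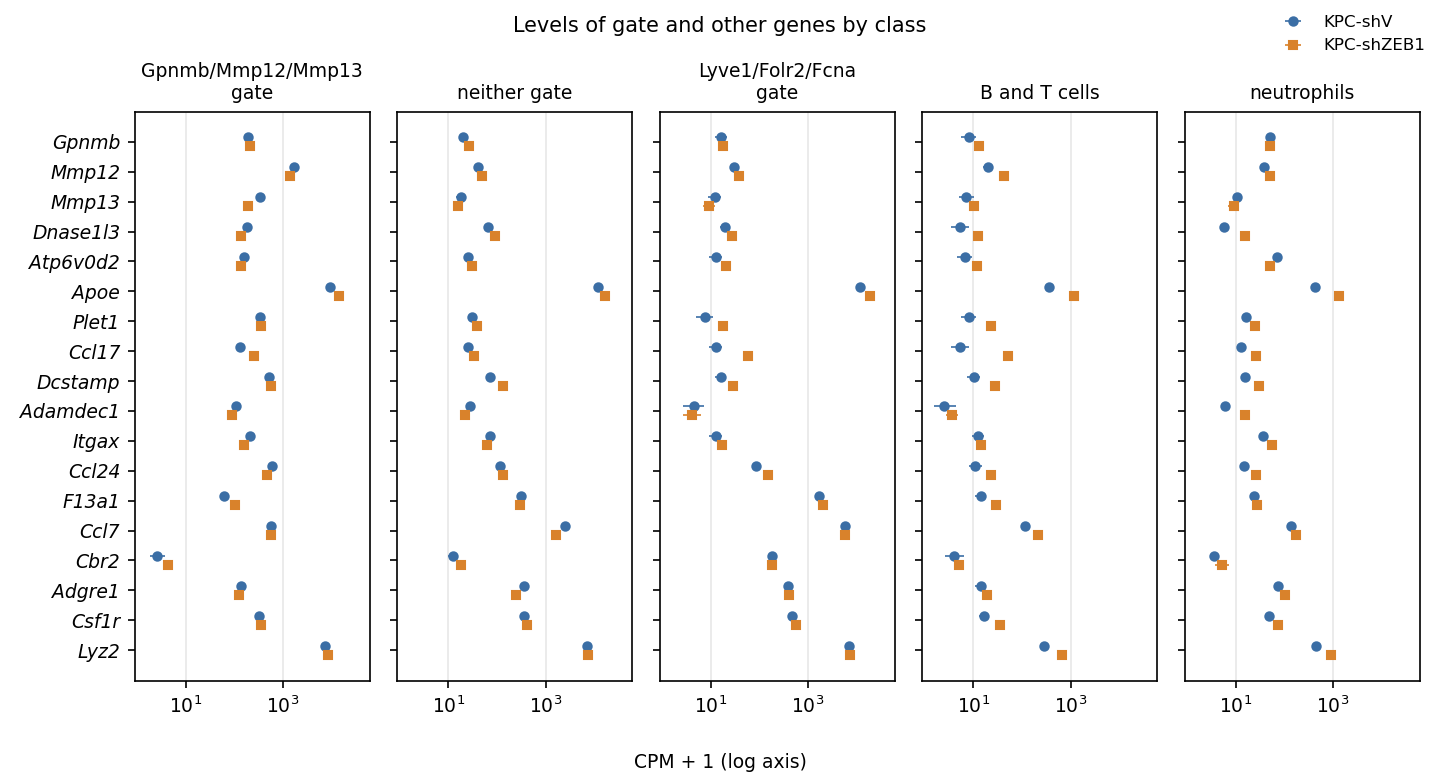
Levels (CPM + 1, log axis) of the gate genes, the given markers and other named genes in 3 macrophage classes, B and T cells and neutrophils, with exact Poisson 95% intervals, for both libraries. Plet1 stood at 333 and 342 CPM in gated cells and at 30.0 and 37.9 CPM in macrophages meeting neither gate, while Apoe was high in all 3 macrophage classes.

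To describe gated cells against the other macrophages, 3387 genes outside the rule with at least 50 CPM in either class of each library were compared. A gene counted as higher or lower where its ratio was at least 2-fold in both libraries, with 1 CPM added. By this limit 44 genes were higher (1.30% of those compared) and 74 were lower (2.18%). The median log2 ratio of all genes was 0.02 and 0.01. Against macrophages meeting neither gate, 30 of 3343 genes were higher (0.897%) and 34 were lower (1.02%). In what follows the level in gated cells comes before that in other macrophages, first under the KPC-shV label and then under the KPC-shZEB1 label.

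Plet1, a surface protein also found on epithelial and dendritic cells, led the higher genes. It was at 333 CPM against 20.9 CPM (ratio 15.9, 13.7 to 18.5) and then at 342 CPM against 38.3 CPM (8.93, 8.23 to 9.70). Dcstamp, a membrane protein needed for the fusion of osteoclasts and of macrophages, was at 514 CPM against 52.8 CPM (9.73, 8.85 to 10.7) and then at 573 CPM against 116 CPM (4.92, 4.69 to 5.17). In the Lyve1, Folr2 and Fcna class Plet1 was at 6.63 and 16.5 CPM, where B and T cells held 7.02 and 22.1 CPM.

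With each cell thinned to 2000 UMIs, a Dcstamp UMI was found in 42.3% and 43.5% of gated cells, in 7.80% and 13.9% of macrophages meeting neither gate, and in 2.72% and 3.84% of B and T cells. Plet1 was found in 26.6% and 25.8% of gated cells, in 4.01% and 4.67% of macrophages meeting neither gate, and in 1.02% and 3.97% of B and T cells. Unthinned, Plet1 was found in 46.9% and 52.3% of gated cells and in 4.57% and 8.87% of B and T cells, whose median depths were 5054 and 4667 UMIs. In both libraries the gated cells stood well above cells that should lack these genes.

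Chemokines and receptors were among the other leading genes. Ccl17, a chemokine that draws T cells through the receptor CCR4, was at 128 CPM against 18.8 CPM and then at 257 CPM against 43.5 CPM. Ccl24, an eotaxin, was at 582 CPM against 105 CPM and then at 464 CPM against 157 CPM. Tnfrsf9, the costimulatory receptor 4-1BB, was at 132 CPM against 35.0 CPM and then at 161 CPM against 42.0 CPM, below the 367 and 344 CPM of B and T cells. Il7r, the receptor for interleukin 7, was at 138 CPM against 19.4 CPM and then at 174 CPM against 46.9 CPM, below the 305 and 311 CPM of B and T cells. Fgf13, an intracellular member of the fibroblast growth factor family, was 7.30-fold and 3.11-fold higher, at 71.2 and 80.4 CPM in gated cells and 212 and 194 CPM in B and T cells. Il7r, Tnfrsf9 and Fgf13 thus stood higher in B and T cells than in gated cells.

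Lpl, which frees fatty acids from lipoproteins, was 3.82-fold and 3.20-fold higher. Mfge8, a bridge to dying cells, was 3.66-fold and 3.19-fold higher, and Itgax, which encodes the integrin CD11c, was 4.08-fold and 3.03-fold higher. Adamdec1, a secreted protease of macrophages and dendritic cells, was 6.02-fold and 5.13-fold higher. Ear2, a ribonuclease of a family of near-identical genes among which reads may be split, was 5.10-fold and 3.49-fold higher and is uncertain for that reason. The list also held Atp6v0d2, the scaffold gene Ksr2 and the noncoding transcript Gm6209.

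**Figure D3:**
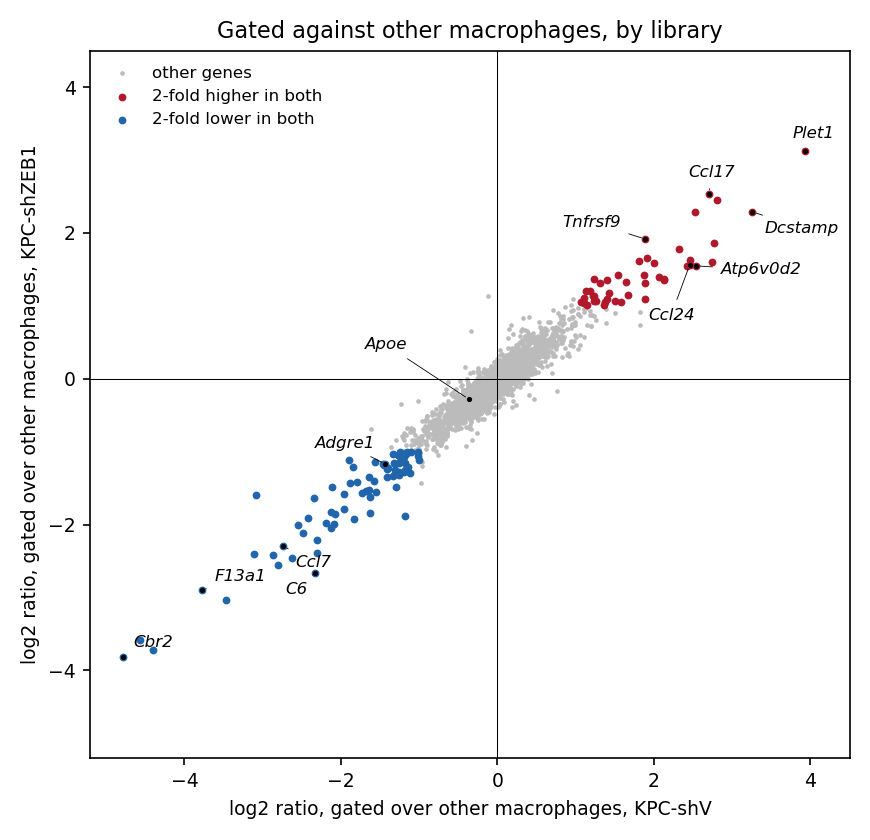
Log2 ratio of gated over other macrophages for the 3387 genes compared, in the library labelled KPC-shV (x axis) and the library labelled KPC-shZEB1 (y axis). Red and blue points mark the 44 and 74 genes at least 2-fold higher or lower in both libraries, with Plet1 and Cbr2 at the ends and Apoe just below 0 in both.

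Genes of resident macrophages and chemokines for monocytes were lower in gated cells. Cbr2, a carbonyl reductase, was at 1.63 CPM against 71.7 CPM and then at 3.42 CPM against 61.4 CPM. F13a1, the A chain of coagulation factor XIII, was at 59.2 CPM against 823 CPM and then at 103 CPM against 770.5 CPM. Ccl7, a chemokine for monocytes, was at 554 CPM against 3701 CPM and then at 567 CPM against 2786 CPM. Ednrb, Bmp2, Serpinb8, Fcrls, Ptprm, Stard8, Gas6, C6 and Clec10a completed the 12 lowest, with ratios from 0.0391 for Ednrb to 0.196 for Clec10a under the KPC-shV label.

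The rule kept cells with Lyve1, Folr2 and Fcna out of the gated class, so genes that go with those 3 had to be lower against all other macrophages. Macrophages meeting neither gate also held fewer than 3 of those UMIs. Their median depths were 10412 and 11673 UMIs, against 19296 and 19562 in gated cells, so the same limit was looser for them. The comparison with them is thus not free of the rule. In it F13a1 was at 59.2 CPM against 308 CPM (ratio 0.192, 0.174 to 0.213) and then at 103 CPM against 296 CPM (0.347, 0.327 to 0.368). Ccl7 had ratios of 0.218 and 0.352 in that comparison, and Adgre1, which encodes the macrophage marker F4/80, had 0.374 and 0.512. The higher genes had ratios of 11.1 and 9.04 for Plet1 and 7.09 and 4.32 for Dcstamp there.

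Lists of related genes were then read against those shares of all genes. The vacuolar ATPase list had 17 members compared, of which Atp6v0d2 was higher, and its medians were -0.01 and -0.16 on the log2 scale. None of 8 cathepsins and none of 14 lysosomal hydrolases and membrane proteins passed the limit, with medians of 0.11 and 0.18 and of -0.09 and -0.10. Of 15 lipid-handling genes compared, out of 20 listed, 4 were higher: Lpl, the fatty acid-binding protein Fabp5 (2.65-fold and 2.14-fold), the lectin Lgals3 (2.35-fold and 2.09-fold) and the tetraspanin Cd9 (2.22-fold and 2.03-fold). Trem2, the lipid receptor of the same list, had ratios of 0.963 (0.898 to 1.03) and 1.04 (0.986 to 1.09).

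Of 13 osteoclast genes 4 were abundant enough to be compared and 1, Dcstamp, was higher. Acp5, the tartrate-resistant phosphatase of that list, was at 567 CPM against 295 CPM and then at 486 CPM against 239.7 CPM, just short of the limit in the first library. Ocstamp, another fusion protein, was under the level limit, at 32.7 CPM against 7.09 CPM and then at 30.3 CPM against 6.06 CPM. Of 9 matrix proteases and inhibitors outside the gate, Adam8 was higher, by 2.21-fold and 2.32-fold.

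Of 14 chemokines compared, from a list that leaves out Ccl17, Ccl24 was higher and Ccl2, Ccl7, Ccl8 and Ccl12 were lower. Ccl17 was higher too, as given above. Ccl2, the main ligand of CCR2 on monocytes, was at 499 CPM against 2130.1 CPM and then at 410.3 CPM against 1638 CPM. Of 12 genes of immune regulation, Pdcd1lg2, a ligand of PD-1, was 4.45-fold and 2.57-fold higher, Havcr2 (TIM-3) was 2.61-fold and 2.04-fold higher, and Il10 was lower, with ratios of 0.193 and 0.318. None of 13 genes of glycolysis and hypoxia passed the limit, and their medians were 0.43 and 0.58.

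MHC class II genes had medians of 0.85 and 0.45, with none of 8 past the limit in both libraries. H2-Ab1 was at 2756 CPM against 1324 CPM and then at 3688 CPM against 2662 CPM. Of 10 macrophage identity genes Adgre1 was lower, at 136 CPM against 368 CPM and then at 126 CPM against 284 CPM. None of the 10 was higher, and their medians were -0.29 and -0.30. In the list of dead cell uptake and DNA clearance, Mfge8 was higher and Gas6 and Stab1 were lower among 9 compared.

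No member was past the limit among the genes compared for the interferon response (9), inflammatory cytokines (10), growth factors (10), iron handling (6), the MITF and TFE factors (2) and the cell cycle (4). Scavenger receptors had 1 of 6 lower (Stab1), complement genes 1 of 8 higher (Itgax), resident macrophage genes 4 of 6 lower (Cbr2, Gas6, F13a1 and Selenop), and monocyte genes 1 of 6 lower (Plac8).

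Markers of other cell types were read as summed levels over each whole list. The T and NK cell list, of 10 genes with Il7r among them, summed to 163 and 239 CPM in gated cells, 56.8 and 135 CPM in other macrophages and 2893 and 2491 CPM in B and T cells. By the levels given above, Il7r made up most of that sum in gated cells. The rest of the list summed lower in gated cells than in other macrophages in both libraries. The dendritic cell list summed to 67.6 and 97.8 CPM in gated and 50.5 and 76.5 CPM in other macrophages, the neutrophil list to 1919 and 1284 CPM and to 1954 and 1219.8 CPM, and the tumor epithelium list to 157 and 207 CPM and to 158 and 218 CPM. The B and plasma cell, fibroblast, endothelium and acinar lists summed to 25.4, 468, 89.3 and 53.4 CPM in gated cells under the KPC-shV label and to 90.1, 638, 83.7 and 311 CPM under the KPC-shZEB1 label. Of the 446 and 813 gated cells, 20 and 56 were kept when cells with markers of other types were left out. The part of RNA from other cells in these levels was not otherwise tested.

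Levels were also followed along the gate itself, in macrophages with fewer than 3 Lyve1, Folr2 and Fcna UMIs, with each cell thinned to 5000 UMIs before its gate UMIs were counted. Plet1 was at 22.9 and 37.7 CPM in cells with 0, 218 and 251 CPM in cells with 3 to 4, and 436 and 538 CPM in cells with 20 or more. Adgre1 took the opposite course, from 359 and 239 CPM through 154 and 146 CPM to 119 and 102 CPM. Inhba, a subunit of activin A, was at 187 and 314 CPM in cells with 0 and at 760.5 and 1061 CPM in cells with 20 or more. Ccl7 was at 2520.1 and 1509.9 CPM in cells with 0 and at 357 and 546 CPM in cells with 3 to 4, but at 800.2 and 659 CPM in cells with 20 or more.

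**Figure D4:**
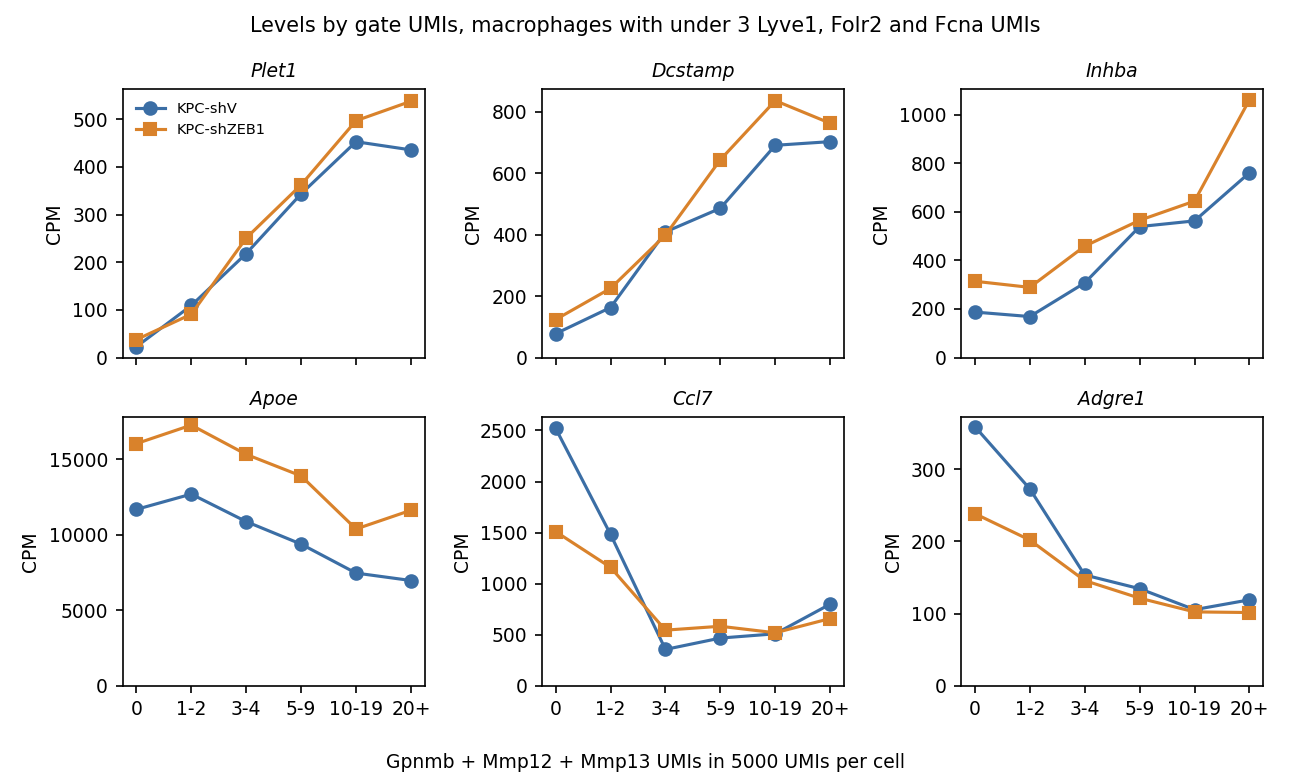
Levels (CPM) of 6 genes by the number of Gpnmb, Mmp12 and Mmp13 UMIs in 5000 UMIs of a cell, in macrophages with fewer than 3 Lyve1, Folr2 and Fcna UMIs, for both libraries. Plet1, Dcstamp and Inhba are higher and Ccl7 and Adgre1 lower at 20 or more gate UMIs than at 0, and Apoe is higher in the library labelled KPC-shZEB1 at each step.

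The cells led by each gate gene differed from one another. Gated cells were divided by the gate gene with the most UMIs. Mmp12 led in 338 of 446 and 593 of 813 cells (75.8% and 72.9%), Gpnmb in 53 and 132 (11.9% and 16.2%) and Mmp13 in 48 and 70 (10.8% and 8.61%), with ties in the rest. Median depths were alike, at 18483 and 18771.5 UMIs for Gpnmb-led and 19276 and 19781 UMIs for Mmp12-led cells. Between the libraries the ratio of the Gpnmb-led share of gated cells was 1.37 (0.986 to 1.92).

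Gpnmb-led cells held more Apoe, Fabp4, Fabp5 and Vcam1, and Mmp12-led cells more Plet1, Dcstamp and Ccl17. By the 2-fold limit in both libraries, 31 of 3333 genes were higher in Gpnmb-led than in Mmp12-led cells (0.930%) and 37 were lower (1.11%). The division was made after the values were seen. Levels below give Gpnmb-led cells before Mmp12-led cells.

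Apoe was at 18737 CPM against 7052 CPM under the KPC-shV label and then at 26859 CPM against 10648 CPM. The marker Atp6v0d2 was at 362 CPM against 131 CPM and then at 311 CPM against 107 CPM. Vcam1, an adhesion molecule, was at 1222 CPM against 279 CPM and then at 1031 CPM against 232 CPM, and Gdf15, a stress-induced cytokine, was 4.13-fold and 4.76-fold higher. Selenop, a selenium transport protein, was 4.43-fold and 3.59-fold higher. Fabp5 was at 2934 CPM against 1215 CPM and then at 3027 CPM against 1089.9 CPM, Fabp4 was 5.54-fold and 2.84-fold higher, and the lysosomal protease Ctsd was 2.28-fold and 2.62-fold higher. Of 17 lipid-handling genes compared 3 were higher (Apoe, Fabp4 and Fabp5). Ctsd was the 1 of 8 cathepsins past the limit, and no gene of the 14 lysosomal hydrolases and membrane proteins was, at medians of 0.41 and 0.50. The leading genes also included Plpp3, Ccl8, Chil3, Saa3, Syngr1, Slamf7 and Fchsd2.

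Plet1, the leading gene of the gated class as a whole, was at 80.4 CPM against 399 CPM and then at 54.1 CPM against 419 CPM. Ccl17 was at 1.03 CPM, a single UMI, against 168 CPM and then at 32.8 CPM against 336 CPM. Dcstamp was at 173 CPM against 608 CPM and then at 149.7 CPM against 689 CPM. Ccr2, the monocyte receptor for CCL2, was at 33.0 CPM against 169 CPM and then at 25.3 CPM against 127 CPM, and Irf4, a transcription factor of myeloid and lymphoid cells, had ratios of 0.171 and 0.169. Areg, a ligand of the epidermal growth factor receptor, had ratios of 0.135 and 0.186. Klrb1b and Ear2, both of families of closely related genes, and Il1r2, Ccl24, Fgf13 and Napsa were also lower in Gpnmb-led cells. MHC class II genes, of which none of 8 passed the limit, had medians of -0.52 and -0.45.

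Mmp13-led cells were closer to Mmp12-led cells in number of genes past the limit, with 9 of 3323 genes higher (0.271%) and 19 lower (0.572%), but their smaller cell numbers make single genes less certain. Dnase1l3 was at 428 CPM in Mmp13-led and 139 CPM in Mmp12-led cells under the KPC-shV label and at 230.3 and 127 CPM under the KPC-shZEB1 label, whereas Gpnmb-led cells held 143 and 134 CPM. Itga9, an integrin chain, was 2.75-fold and 2.43-fold higher in Mmp13-led cells, and Adgre1 was 2.21-fold and 2.15-fold higher. Ccl17 was at 9.86 and 41.8 CPM in them. Of the given markers, Apoe and Atp6v0d2 thus stood highest in cells led by Gpnmb and Dnase1l3 in cells led by Mmp13.

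**Figure D5:**
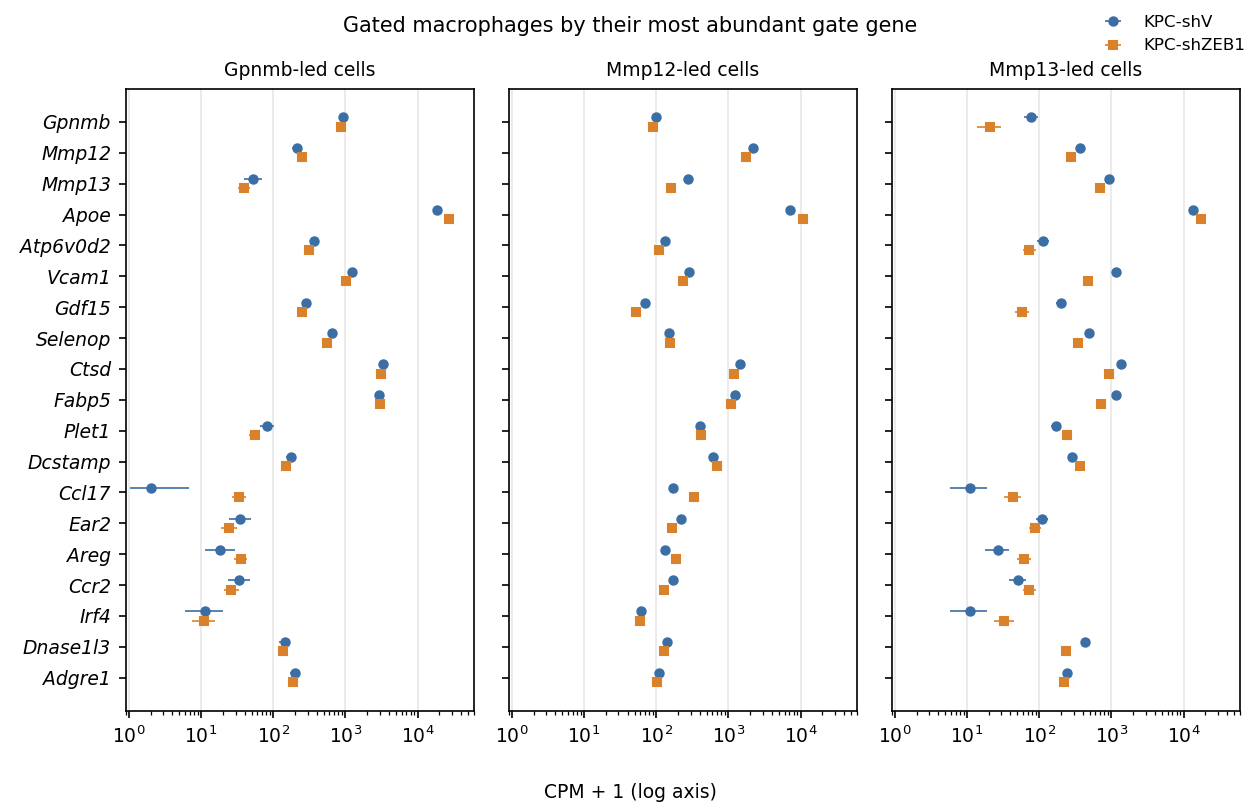
Levels (CPM + 1, log axis, exact Poisson 95% intervals) in gated macrophages divided by their most abundant gate gene, for both libraries. Apoe, Vcam1, Gdf15 and Fabp5 stand higher in Gpnmb-led than in Mmp12-led cells, Plet1, Dcstamp, Ccl17 and Ear2 stand lower, and Dnase1l3 is highest in Mmp13-led cells.

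A gate on Gpnmb alone, at 3 or more UMIs, gave a class with other genes. It held 9.72% and 11.5% of macrophages, and 16 genes were then higher and 17 lower, of which 6 and 11 were among those of the 3-gene gate. Plet1 had log2 ratios of -0.27 and -0.93 against other macrophages under that gate, Ccl17 of -1.38 and -1.88, and Ccl24 of -1.32 and -0.70. The other macrophages under that gate included most Mmp12-led cells of the 3-gene gate, so the comparator was not the same. By the levels given above, Gpnmb-led cells held more Plet1 and Dcstamp, and less Ccl17, than the other macrophages of the 3-gene gate. With Gpnmb-led cells left out of the gated class, 53 genes were higher and 89 lower, 43 and 73 of them shared with the full class.

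Within gated cells, the libraries were compared over 3455 genes with at least 50 CPM in either, at a limit of 1.5-fold, KPC-shZEB1 over KPC-shV. By it 55 genes (1.59%) were higher and 21 (0.608%) lower. In other macrophages 77 of 3488 genes (2.21%) were higher and 39 (1.12%) lower. Among the gate genes Mmp13 was at 327 and 189 CPM (ratio 0.576, 0.547 to 0.606), Mmp12 at 1708 and 1367 CPM (0.800, 0.784 to 0.817), and Gpnmb at 192 and 208 CPM (1.08, 1.02 to 1.15). The rule used these 3 genes, so the ratios describe the cells chosen.

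The leading genes included some of acinar cells and neutrophils, which B and T cells held at like levels. Ctrb1, a pancreatic protease precursor, was at 19.2 and 113 CPM in gated cells and at 20.01 and 152 CPM in B and T cells. Prss2, a trypsinogen of a family of closely related genes, was at 15.4 and 62.6 CPM in gated cells and at 22.9 and 85.9 CPM in B and T cells. In the lower direction, S100a9, a neutrophil calcium-binding protein, was at 649 and 267 CPM in gated cells and at 516 and 260.3 CPM in B and T cells. Its partner S100a8 was at 339.7 and 149.6 CPM in gated cells and at 294 and 142 CPM in B and T cells.

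Of the 55 higher genes 38, and of the 21 lower genes 17, had a B and T cell level of at least 50% of the gated level in either library. That was so for 2678 of the 3387 genes of the class comparison, a set other than the 3455 genes compared between libraries. With the B and T cell level of each library subtracted, 50 genes were higher and 102 lower, but 12 of the 55 and 6 of the 21 genes were among them. Most of the genes counted between libraries thus failed the level or the ratio limit once that level was taken off. The part of free RNA was not otherwise tested.

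Saa3, a serum amyloid, was at 76.0 and 211 CPM in gated cells and at 57.4 and 206 CPM in B and T cells, while other macrophages held 654 and 638 CPM. Satb1 and Ebf1, lymphocyte factors, were at 21.7 and 61.5 CPM and at 22.4 and 58.3 CPM, far below their levels in B and T cells. Gm11867, AY036118, Gm47283, Lrrc4 and Arf5 completed the 10 highest, and the unranked mitochondrial genes mt-Atp8 and mt-Nd2 were 4.11-fold and 2.60-fold higher. Cstdc4, of a family of near-identical stefin genes, had a ratio of 0.239, and Hspa1b, a heat shock protein with a near-identical copy, was at 133 and 68.6 CPM against 171 and 76.7 CPM in B and T cells. G0s2, Gm20186, Ost4, Myo1d and Sirpb1c were also among the 10 lowest.

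Other genes past the limit stood above their level in B and T cells. Ccl17 was at 128 and 257 CPM (ratio 2.00, 1.87 to 2.14), against 4.42 and 50.5 CPM in B and T cells. By the levels given above it was also higher under the KPC-shZEB1 label in other macrophages, so the difference was not particular to gated cells. Cxcl14, a chemokine of epithelial and stromal cells, was at 31.6 and 66.4 CPM (2.10, 1.84 to 2.41), against 8.06 and 20.8 CPM. Mmp19, another matrix protease, was at 102 and 176 CPM (1.73, 1.60 to 1.87), and Nos2, the inducible nitric oxide synthase, at 53.6 and 93.9 CPM (1.75, 1.58 to 1.95). Apoe was 1.51-fold higher in gated cells and 1.43-fold higher in other macrophages, and was at 363 and 1184.5 CPM in B and T cells. Ccl12, a monocyte chemokine, was at 228 and 106 CPM (0.464, 0.434 to 0.495), and in other macrophages its ratio was 0.754 (0.726 to 0.783).

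Among the lists, 3 of 10 interferon response genes compared were higher in gated cells of the library labelled KPC-shZEB1 (Gbp2, Gbp5 and Ly6e), with a list median of 0.37 on the log2 scale and 0.59 for the same genes in other macrophages. Gbp2, a guanylate-binding protein, was at 166 and 273 CPM in gated cells and at 52.8 and 123 CPM in B and T cells. MHC class II genes had a median of 0.13 in gated cells and 0.66 in other macrophages. In the neutrophil list 3 of 7 were lower (S100a8, S100a9 and G0s2), and both acinar genes compared were higher. The chemokine list, which leaves out Ccl17, had 3 of 16 higher (Ccl5, Ccl22 and Cxcl14) and 1 lower (Ccl12). The lipid handling, cathepsin, vacuolar ATPase, osteoclast and glycolysis lists had medians of -0.11, -0.20, -0.09, 0.20 and 0.03.

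Genes of dividing cells were read cell by cell. The share of gated cells with at least 3 UMIs of Mki67, Top2a, Cdk1, Ccnb1 and Birc5 was 26.9% (22.8 to 31.3) and 41.7% (38.3 to 45.2). Other macrophages, which were shallower, held 15.5% and 23.0%. With each cell thinned to 5000 UMIs and a limit of 2 UMIs, the shares were 15.4% (12.1 to 19.2) and 20.9% (18.1 to 23.9) in gated cells and 14.2% (11.6 to 17.2) and 14.3% (12.4 to 16.5) in other macrophages. At equal depth the intervals of gated and other macrophages overlapped under the KPC-shV label and lay apart under the KPC-shZEB1 label. Macrophages meeting neither gate held 12.94% (9.696 to 16.79) and 15.45% (13.03 to 18.13). Their intervals overlapped those of gated cells in both libraries, under the KPC-shZEB1 label only at the edge, where the gated interval began at 18.12. The Lyve1, Folr2 and Fcna class held 16.14% and 11.31%. The separation thus depended on the comparator, and with cells of 1 tumor a group it is no test. The summed cell cycle list was at 584 and 583 CPM in gated cells and 564 and 512 CPM in other macrophages, and B and T cells held 740.4 and 705 CPM.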

How the data were processed

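The authors aligned reads of 10x Chromium 3′ libraries to the mm10 mouse genome with Cell Ranger 7.0.1, per the submitters' processing notes, and the deposited files hold their UMI counts per gene and barcode, before any filter of the study. Whether intron reads were counted is not given in the sources used here. Coordinates, 1-based, are from GENCODE M21 on GRCm38, the build named mm10. Identifiers of 32158 of 32285 genes matched.

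The members and lists were chosen with earlier results of these data known. The cell filters follow the study's methods. UMIs of a class were summed in each library and given as CPM with exact Poisson intervals. Shares have Clopper-Pearson intervals, and ratios an exact interval conditional on the summed counts. All are at 95% and cover counting error only. Ratios in the text have no added constant, and log2 ratios have 1 CPM added. Symbols found on several gene rows were left out. The ratio and interval script was tested on simulated counts. Scrublet in scanpy 1.11.5 scored doublets, which were kept. Python 3.11.15, numpy 2.4.6 and scipy 1.17.1 were used.

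Reference cells held C1q under 0.1% of UMIs. Neutrophils held at least 0.5% S100a8 and S100a9, B and T cells at least 3 Cd3 or 5 Cd79a, Cd79b and Ms4a1 UMIs, and tumor cells at least 10 Krt8 and Krt18 UMIs. The gated cells held 8584414 and 16088297 UMIs under the KPC-shV and KPC-shZEB1 labels, and the other macrophages 9028651 and 17002170.

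Named were the gate genes and given markers, the 15 largest and 12 smallest ratios of gated over other macrophages, ranked by the smaller of the 2 libraries, and the 10 largest and 10 smallest ratios between libraries in gated cells, leaving mitochondrial and ribosomal protein genes unranked, with up to 5 examples per list. The division by leading gate gene, its genes and the genes given along the gate were chosen after the values were seen. Results were recomputed with other settings for doublets, gates, depth, filters, background, averaging and the added constant. Some results for single genes are not reported here.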

Additional observations from a re-analysis of the deposited data

Results flagged for a closer look

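In data outside the comparisons above, 73 kept barcodes under the KPC-shZEB1 label met the C1q limits and the gates but held 10 or more Krt8 and Krt18 UMIs, so they were not counted as macrophages. They were 0.586% of kept cells (0.460 to 0.737), against 25 barcodes and 0.213% (0.138 to 0.315) under the KPC-shV label. They are listed because these counting intervals lay apart, which with 1 library a group is no test of the hairpin. Their median depths were 30927 UMIs under the KPC-shZEB1 label and 31709 UMIs under the KPC-shV label, and 6 and 3 of them had doublet scores above 0.2. Whether they held a tumor cell and a macrophage together was not tested.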

How the results depend on the processing

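Pairs give the KPC-shV label first, and counts give genes higher and lower. A gate of at least 10 UMIs gave shares of macrophages of 30.8% and 29.5%, and gates set as shares of UMIs gave 32.6% under the KPC-shZEB1 label. Gpnmb alone gave shares of 9.72% and 11.5% (ratio 1.18), 16 and 17 genes against other macrophages and 88 and 54 between libraries. Thinning to 5000 UMIs gave 27.7% and 24.6% (ratio 0.889) and 29 and 43 genes against other macrophages. Leaving out cells with markers of other types kept 20 and 56 gated cells, with shares of 23.0% and 17.3% (ratio 0.754), 67 and 120 genes against other macrophages and 980 and 799 between libraries. With the B and T cell level subtracted, 132 and 159 genes stood against other macrophages and 102 were lower between libraries. Adding 5 CPM left 11 genes lower between libraries. A limit of 20 CPM gave 115 genes lower than in other macrophages, and 135 and 34 between libraries. Of settings chosen after seeing the data, setting gated cells against macrophages meeting neither gate gave 34 lower genes, and cells of 10000 to 20000 UMIs gave 91 and 46 between libraries. All other shares and counts stayed within 1 counting interval or 1.5 times of those reported, with doublets removed at 14 lower genes between libraries, but a like count can hold other genes: of the 50 genes higher between libraries with the B and T cell level subtracted, 12 were among the 55 reported, and of the 102 lower, 6 were among the 21.

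Signs turned as follows, on the log2 scale. Under Gpnmb alone, against other macrophages, Plet1 was at -0.27 and -0.93, Ccl17 at -1.38 and -1.88, Ear2 at -0.77 and -0.92, Fgf13 at -0.42 and -0.089, Ccl24 at -1.32 and -0.70, and MHC class II genes at a median of -0.12 and -0.27. Under the KPC-shZEB1 label that gate gave Adamdec1 at -0.61, Dcstamp at -0.21, osteoclast genes at a median of -0.21 and complement genes at 0.073, and under the KPC-shV label macrophage identity genes at 0.041. Between libraries it gave -0.32 for the T and NK cell gene. With cells holding other markers left out, Ccl24 was at -0.11 under the KPC-shZEB1 label, and the medians of dead cell uptake and interferon response genes were -0.42 and -0.83 under the KPC-shV label. Between libraries Hspa1b was then at 1.13 and Gm20186 at 0.74, the T and NK cell gene at -0.82, the tumor epithelium list at -0.40 and the fibroblast list at -0.036. Saa3 was at -1.69 between libraries with the B and T cell level subtracted. The fibroblast median was 0.10 under the KPC-shZEB1 label without doublets, and the interferon response median was -0.0038 under the KPC-shV label against macrophages meeting neither gate. The causes were not tested. Of single values for named genes 547 stayed within counting error, 557 moved and 16 changed sign, and of list medians 778, 329 and 13 did so.

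No paired analysis was possible because each group has 1 library. Intervals cover counting error, and the spread between tumors is unknown. The gated class held 8584414 and 16088297 UMIs, but its Gpnmb-led cells only 969721 and 2530998 and its Mmp13-led cells 1014723 and 1315778, so low genes in these are the least precise.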
